A study of Phormium tenax with 2 samples.

Results

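The 200 unigenes with the most reads in well-watered leaves of Phormium tenax (New Zealand flax) are described here, with their length and their level in leaves under drought. A unigene is a cluster of transcripts that the authors assembled without a genome and that stands in for a gene. The 200 were chosen by their estimated number of reads in the control library, out of 75265 unigenes, of which 71410 had reads. All 200 had reads in both libraries. The drought library (T01) came from one-year-old plants whose soil was dried to 25% of its saturated water content, and the control library (T02) from plants of the same age kept at 70%. Water was withheld until the dried soil reached its level, and leaf blades of both groups were taken 10 days later. RNA of 3 plants was mixed in equal amounts for each library, and each condition has 1 library, so no spread between plants could be measured and no difference below has a replicate check. Over all unigenes the estimated reads came to 17744093 under drought and 18540664 in the control.

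In green leaves the most abundant messenger RNAs usually encode proteins of photosynthesis, such as the small subunit of Rubisco, which fixes carbon dioxide, and the chlorophyll-binding proteins that collect light. Proteins of translation and metallothioneins, which bind metals, are often abundant as well. Many photosynthesis transcripts are known to decline in plants that lose water. These are general facts about leaves. The deposited tables give no gene name for any of the 200 unigenes, so which of them belong to these classes was not examined, and the leaf label could not be checked against marker genes. The study itself names 62 unigenes by identifier, as genes that differed under drought, and 0 of the 62 are among the 200. Of the 62, c58202.graph_c0, listed there under glutathione metabolism, stood highest in the control library, at rank 850. The 200 make up only 0.266% of all unigenes, so an overlap of 0 says little, and nothing is read from it. The study also reports many more differing genes than those it names by identifier.

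A few unigenes held much of each library. The 200 make up 0.266% of all unigenes. They held 22.7% of all drought reads (95% exact Clopper-Pearson interval 22.67 to 22.71%) and 35.3% of all control reads (interval 35.26 to 35.30%). The control share follows from the choice, because no other 200 unigenes could hold more control reads. The drought share rests on a library that the choice did not use. The intervals cover counting error only, and copies of a molecule made by PCR count as separate reads. The other unigenes together had 13717425 drought reads and 11999293 control reads.

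Measured as TPM, which divides reads by length before scaling each library to the same total, the 200 held 19.3% of the drought total and 28.9% of the control total. In the drought library 1037 unigenes were needed to reach 50% of the reads, against 631 in the control library. The drought library's own 200 most abundant unigenes held 27.7% of its reads, which is less than the 35.3% that the control library's 200 held there. The drought reads were thus spread over more unigenes than the control reads.

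**Figure D1:**
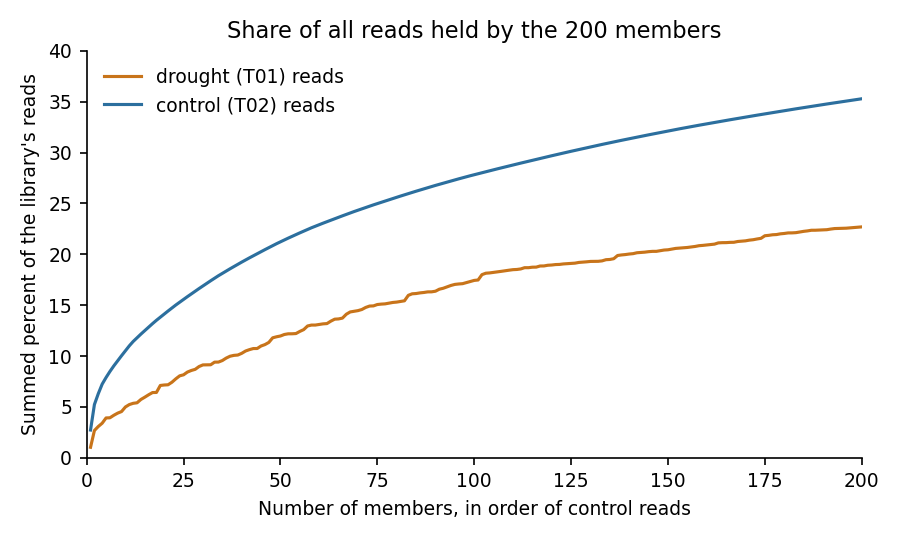
Summed percent of each library's reads (y axis) held by the 200 unigenes, added in order of their control reads (x axis), for the drought and the control library. The first 20 unigenes held 7.16% of reads in drought and 14.1% in the control, and the lines end at 22.7% and 35.3%.

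The 2 most abundant unigenes stood apart from the rest. c52546.graph_c3 is the longest of the 200 (6976 bp) and had 184116 reads in drought and 506656 in the control, or 1.04% and 2.73% of the reads. c49096.graph_c1 (1181 bp) had 292502 drought reads and 464618 control reads. These 2 unigenes were also the most abundant in the drought library, with c49096.graph_c1 at rank 1 and c52546.graph_c3 at rank 2. Per length the picture was different. c49096.graph_c1 had the highest TPM of any unigene in both libraries, 16089 in drought and 25993 in the control, while c52546.graph_c3 had 1622 and 4536 TPM and stood at rank 32 by TPM in drought and rank 10 in the control.

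Next came c60799.graph_c0 with 69848 drought reads and 197811 control reads. c60435.graph_c0 had 57087 and 173492, and c46719.graph_c0 had 91832 and 120384. After the scaling described further on, their log2 ratios of drought over control were -1.73, -1.83 and -0.61, so c46719.graph_c0 was much closer to even than the other two. Of the other unigenes among the 10 highest in the control, c56931.graph_c0, c58422.graph_c0 and c39121.graph_c0 had 43734, 37312 and 27600 drought reads, against 101292, 93861 and 92194 control reads. c57698.graph_c0 was closer to even than these, with 79981 drought reads and 91219 control reads and a log2 ratio of -0.41 after scaling.

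The remaining one, c56924.graph_c0 (910 bp in the drought table and 908.77 bp in the control table), was unlike the other 9. It had 2848 reads in drought and 110339 in the control, and its TPM was 207.56 in drought and 8193 in the control. It was the second highest of all unigenes by control TPM. By reads it stood at rank 1112 in drought and at rank 6 in the control.

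**Figure D2:**
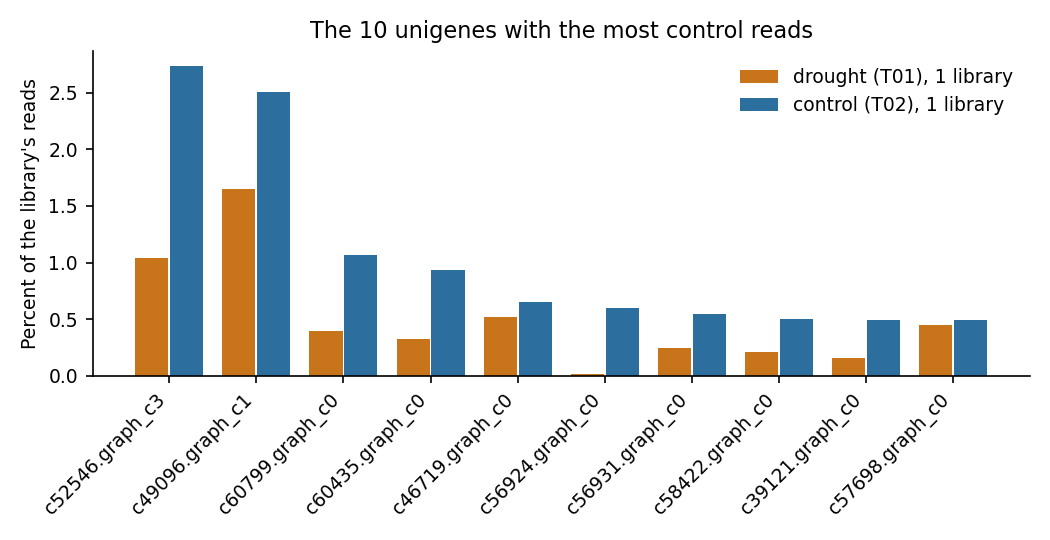
Percent of the library's reads (y axis) of the 10 unigenes with the most control reads (x axis), in the drought library (orange) and the control library (blue), 1 library each and without error bars. All 10 took a smaller share in drought, from 0.45% against 0.49% for c57698.graph_c0 to 0.02% against 0.60% for c56924.graph_c0.

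Over all 200, drought reads ran from 4 to 292502 with a median of 10492.5, and control reads from 10388 to 506656 with a median of 18141.5. Of the 200 unigenes, 153 took a smaller share of the drought reads than of the control reads and 47 a larger one. The summed share of the 153 fell by 15.9 percentage points and that of the 47 grew by 3.33. The 200 were chosen for their high control reads, so a lean toward a smaller share in drought was built into the choice. The 200 most abundant unigenes of the drought library held 27.7% of reads in drought and 27.2% in the control. The summed share of c52546.graph_c3 and c49096.graph_c1 alone fell by 2.55 points. In bulk tissue, fewer cells that express a gene and less of its RNA per cell cannot be told apart.

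The order of the unigenes was kept only in part. Of the 200, 109 (54.5%) were also among the 200 most abundant of the drought library, and the 10 most abundant unigenes of the drought library all belonged to the 200. Of the first 50 by control reads, 40 were still among the drought library's 200, of the next 50 there were 36, of the 50 after rank 100 there were 17 and of the last 50 there were 16. The 109 held 20.2% of reads in drought and 25.4% in the control. The 91 that dropped out held 2.46% and 9.90%, and their median drought rank was 499. Across the 200, Spearman's correlation between drought and control reads was 0.51, a description over unigenes of the same 2 libraries and over a range cut off at the 200th.

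For a comparison beyond shares, reads were scaled between the libraries with edgeR's TMM method, which limits the influence of a few very abundant unigenes. The log2FC compares drought with control on the log2 scale, with 1 read added to both scaled values. The median log2FC of the 200 was -1.14, with quartiles of -1.83 and -0.38. Among all 6430 unigenes with at least 1000 reads in both libraries together, a number all 200 passed, the median was -0.18. Total reads in place of TMM would shift the log2 ratios by 0.29, and upper-quartile factors by -0.21, and by a little less for unigenes with very few reads because of the added read.

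A unigene was called when its log2FC reached 2 in either direction, a 4-fold difference, which is the fold threshold of the study. No test was run. Of the 200, 42 (21%) were called lower in drought, against 4.68% of the 6430, and 17.5% of all 71410 unigenes with reads. Only 1 (0.500%) was called higher, against 6.69% of the 6430 and 27.6% of all unigenes with reads. The control reads that chose the 200 are also the denominator of the log2FC, so a lean toward lower values in drought was built into the choice, and nothing is read from these shares about abundant genes as a class. A choice on drought reads builds in the opposite lean, though its values were not a mirror image of these. The 200 most abundant unigenes of the drought library had a median log2FC of 0.10, with 1 called lower and 53 called higher. The shift of -0.21 from upper-quartile factors is larger in size than this median, so its sign depends on the scaling. For the 200 with the highest mean share of reads over both libraries, a choice added after the data were seen, the median was -0.62, with 26 called lower and 13 called higher. Of these, 165 were among the 200 described here.

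**Figure D3:**
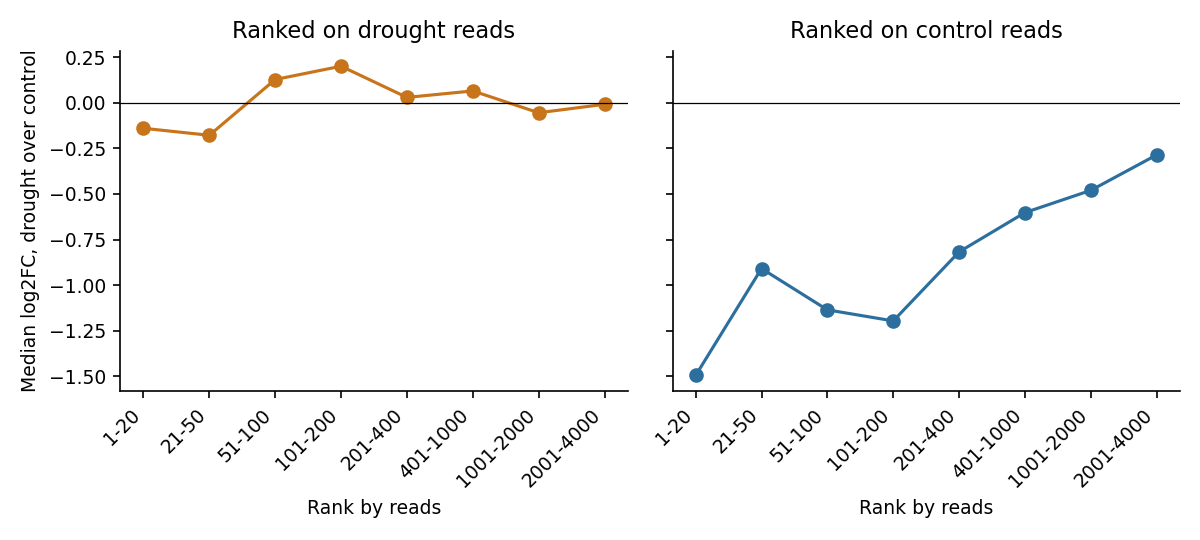
Median log2FC of drought over control (y axis) for unigenes in ranges of rank by reads (x axis), ranked on the drought library at left and on the control library at right. On the drought ranking the median stayed between -0.18 and 0.20, while on the control ranking it was -1.50 for ranks 1 to 20 and -0.29 for the last range, which ends at rank 4000.

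Within the 200, the fall in drought was uneven. Besides the 42 called lower, 69 had a log2FC above -2 and up to -1, 84 lay within 1 of 0, and 5 were at 1 or more, the 1 called higher included. The 42 held 0.75% of reads in drought and 6.53% in the control, so that their share fell by 5.78 percentage points, while that of all 200 fell by 12.6. The 69 held 5.72% and 13.5%, and the 84 held 14.2% and 14.7%. The 42 were found along the whole list, with 5 among the first 20 by control reads, 6 among ranks 21 to 50, 11 among ranks 51 to 100 and 20 among the last 100.

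**Figure D4:**
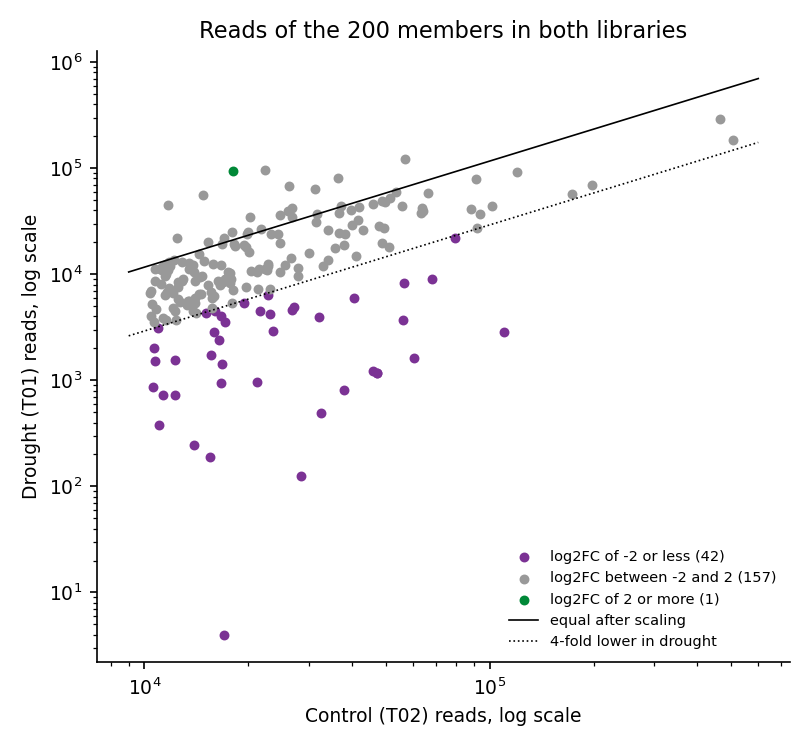
Reads of each of the 200 unigenes in the drought library (y axis) and the control library (x axis), both on log scales, with the line of equal scaled reads and the line of a 4-fold lower level in drought. The 42 called lower spread down to 4 drought reads, while the 1 called higher lies at 93518 drought reads and 18091 control reads.

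The sharpest falls took unigenes with many control reads to much lower levels in drought, between 4 and 2848 reads. 12 unigenes had a log2FC of -5 or less, and they had 11045 to 110339 control reads. c43955.graph_c0 had 4 reads in drought and 16944 in the control, or 0.29 and 1059 TPM, and a log2FC of -11.93 (interval -14.15 to -10.92). Its interval is wide because it rests on 4 reads. c50737.graph_c0 had 125 reads in drought and 28411 in the control, and its log2FC was -8.04 (interval -8.32 to -7.80). Each interval treats the 2 counts of a unigene as a binomial draw (exact Clopper-Pearson, 95%) and was converted to log2FC, and those of c43955.graph_c0 and c50737.graph_c0 do not overlap.

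The next lowest were c49095.graph_c0, c64300.graph_c0 and c55398.graph_c0, with log2FC values of -6.56, -6.28 and -6.05. They had 190, 487 and 245 drought reads, against 15478, 32457 and 13923 control reads. By reads these 5 unigenes ranked between 6644 and 47811 in the drought library and between 53 and 147 in the control library. c39122.graph_c0, with 804 reads in drought and 37858 in the control, had a log2FC of -5.78. c61698.graph_c1, c57970.graph_c0, c56924.graph_c0 and c56855.graph_c0 followed with log2FC values between -5.55 and -5.45, and their intervals overlap. So does that of c59907.graph_c0, named after its values were seen, with 1616 reads in drought and 60396 in the control (log2FC -5.45, interval -5.52 to -5.38). Intervals also overlap between c49095.graph_c0 and c64300.graph_c0, between c64300.graph_c0 and c55398.graph_c0, and between c55398.graph_c0 and c39122.graph_c0. Counting error alone thus left the order of these neighbours open, and no interval here covers spread between plants.

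At the other end, 22 of the 200 had a log2FC above 0, and each of them had at least 20264 drought reads. c54040.graph_c0, with 93518 reads in drought and 18091 in the control, had a log2FC of 2.15 (interval 2.12 to 2.17) and was the only one called higher with TMM. With upper-quartile factors its log2FC was 1.93 and none was called higher, and with total reads c57937.graph_c0 (2.16) and c59598.graph_c0 (2.02) were called as well. c57937.graph_c0 had 95541 reads in drought and 22330 in the control (log2FC 1.87), c59598.graph_c0 had 45266 and 11689 (log2FC 1.73), and c58590.graph_c0 had 55857 and 14801 (log2FC 1.69). All 4 were among the 22 most abundant unigenes in drought, and they stood between ranks 83 and 175 in the control.

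c55472.graph_c0 (573.56 bp in the drought table, 583.68 bp in the control table) reached a log2FC of 1.14, from 67607 reads in drought and 26269 in the control. Its TPM was 8258 in drought and 3202 in the control, the fourth highest of all unigenes in the drought library. c39119.graph_c0, c59636.graph_c0 and c59149.graph_c4 had 80618, 121791 and 63338 drought reads, against 36382, 56947 and 31286 control reads, with log2FC values of 0.92, 0.87 and 0.79. c57423.graph_c0 and c62482.graph_c0 completed the 10 highest, with 21764 and 34992 drought reads and 12405 and 20249 control reads (log2FC 0.59 and 0.57). c59636.graph_c0 was the third most abundant unigene of the drought library, at rank 19 in the control.

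The direction of unigenes near 0 was not settled. Of the 200, 153 were lower and 14 were higher in drought under TMM and the 6 alternatives, which were other scalings, another pseudocount and FPKM values. The other 33 changed sign under at least 1 of them. With total reads or FPKM values 35 unigenes were called lower and 3 higher, with upper-quartile factors 53 and 0, and 35 unigenes were called lower under all 6 alternatives and TMM.

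At equal abundance a longer transcript gives more reads, so length bears on which unigenes were chosen. The median length of the 200 was 1511 bp in the drought table and 1517 bp in the control table, against 297 bp in both tables for all unigenes. The other 6230 unigenes with at least 1000 reads had medians of 1468 and 1476 bp, so that the 200 were close to other well-covered unigenes in length. Of the 200, 167 (83.5%) were longer than 1000 bp, against 79.1% of those 6230 and 12% of all unigenes. The shortest were c19536.graph_c0 (359 bp), c59636.graph_c1 (385.16 bp in drought, 382.85 bp in the control) and c61554.graph_c1 (434 bp). The longest after c52546.graph_c3 were c39121.graph_c0 (5981 bp) and c65816.graph_c0 (5577.75 bp in drought, 5584.73 bp in the control).

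TPM takes length into account. The 200 unigenes with the highest control TPM had a median length of 1170 bp, shorter than the 200 described here and longer than all unigenes. Of the 200, 152 were also among the 200 unigenes with the highest control TPM, and their median length was 1345 bp. The 48 that were not had a median of 2237 bp, and the 48 unigenes that took their places had a median of 680.6 bp. c64326.graph_c2 (3349.12 bp in the control table) had the lowest control TPM of the 200, with 187.67 TPM in drought and 218.38 in the control. c65905.graph_c0 (3244 bp) and c62737.graph_c0 (3127.60 bp in drought, 3222.46 bp in the control) were next, with 230.72 and 116.20 TPM in drought and 231.57 and 245.44 in the control. In drought 104 of the 200 were among the 200 highest by TPM. Spearman's correlation of control length with log2FC across the 200 was -0.004, and with control reads it was 0.10.

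**Figure D5:**
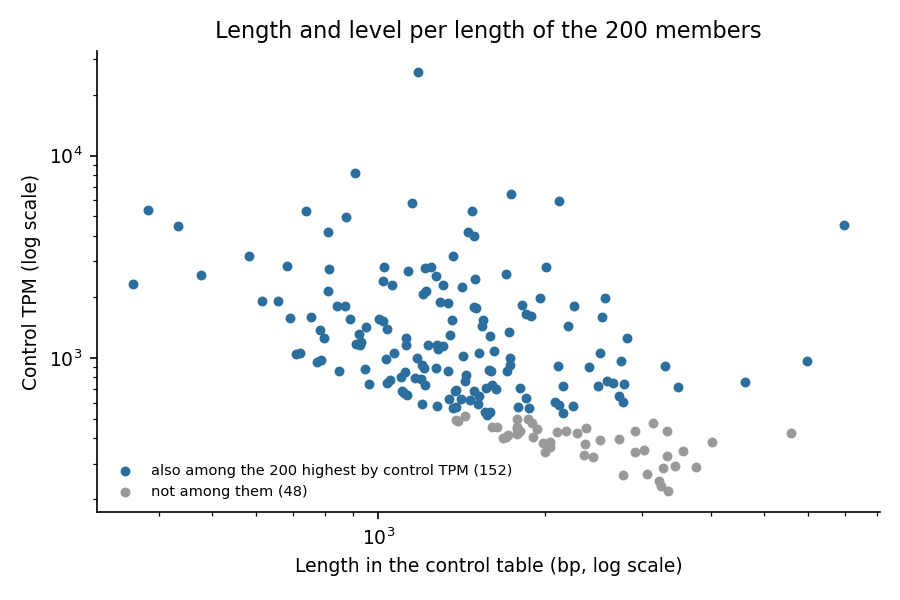
Control TPM (y axis) against length in the control table (x axis) of the 200 unigenes, both on log scales. The 48 that are not among the 200 highest by control TPM (grey) are longer, with a median of 2237 bp against 1345 bp for the 152 that are (blue), and they form the lower right edge, which the cut on reads sets.

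The choice at the 200th place separated unigenes with nearly equal counts. The last unigenes inside were c65217.graph_c1, c59627.graph_c0 and c59810.graph_c0, with 4052, 6900 and 6594 drought reads and 10445, 10434 and 10388 control reads. The first outside were c60631.graph_c0, c65792.graph_c0 and c58971.graph_c0, with 2457, 14678 and 343 drought reads and 10382, 10342 and 10338 control reads. The control counts of these 6 differ by little, while their drought counts run from 343 to 14678.

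How far a count belongs to 1 unigene depends on how reads were shared between similar transcripts. Of the 200, 103 (51.5%) held several assembled transcripts, with 36 at most, against 75.7% of the 6230 other unigenes with at least 1000 reads. Estimated counts were exactly whole for 8 of the 200 in the drought table and 3 in the control table, against 23.5% and 25.6% of those 6230. Estimated counts usually become fractional when a read that matches several transcripts is divided among them. Of the 97 of the 200 with 1 transcript, 96 had a fractional control count. Among 1512 other unigenes with 1 transcript, at least 1000 reads and a control count above 0, 72.9% had one. The number of divided reads is not part of the tables. The part of read number in this difference among unigenes with 1 transcript was not tested.

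The 200 came from 193 Trinity components, which are groups of contigs that share sequence, and 7 components gave 2 unigenes each. In 5 of the 7 the log2FC values of the 2 unigenes lay within 1 of each other. c62229.graph_c0 and c62229.graph_c1 fell alike, with 5912 and 1508 drought reads and 40583 and 10745 control reads (log2FC intervals -3.04 to -2.96 and -3.14 to -2.98). c59636.graph_c0 and c59636.graph_c1 had log2FC values of 0.87 and 0.44, and c61554.graph_c2 and c61554.graph_c1 of 0.14 and 0.39, the first of which turned below 0 with upper-quartile factors. c64326.graph_c1 and c64326.graph_c2 had values of -0.07 and -0.42, the first of which turned above 0 with total reads. c59095.graph_c2 and c59095.graph_c0 had values of -1.31 and -0.42.

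The other 2 components held unigenes that fell to very different extents. In c57970, graph_c0 (1900.93 bp in drought, 1891.07 bp in the control) had 1178 drought reads and 47157 control reads, while graph_c1 (696.41 and 682.51 bp) had 11388 and 27821. Their log2FC values were -5.55 and -1.51. In c61698, graph_c1 (1853 bp) had 1177 drought reads and 47270 control reads, while graph_c0 (841.19 and 840.61 bp) had 11313 and 22377, with log2FC values of -5.55 and -1.21. The longer unigenes of both components had nearly the same reads in each library, a likeness seen only after the values were examined. Whether c57970 and c61698 are copies of 1 gene was not tested, since the sequences were not used here.

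Drought and control tables gave different lengths for 102 of the 200, and in 8 the difference was over 10%. Such lengths are commonly averages over a unigene's transcripts weighted by their reads, but how they were made here is not stated. c65353.graph_c1 was 1482.17 bp long in the drought table and 2374.68 bp in the control table. It had 19373 reads in drought and 16721 in the control, with a log2FC of -0.01 (interval -0.04 to 0.02), but 837.35 and 449.47 TPM, so that its reads were level after scaling while its TPM was higher in drought. c55780.graph_c1 was 913.85 bp long in drought and 615.77 bp in the control, with 939 and 16708 reads (log2FC -4.38). c50737.graph_c0, named above for its fall, was 3281.50 bp long in drought and 2498.12 bp in the control, and c43955.graph_c0 was 915.07 and 1065.64 bp. The drought lengths of these last 2 rest on 125 and 4 reads. c62251.graph_c1 was 1315.58 bp long in drought and 1123.27 bp in the control, with 18123 and 19677 reads (log2FC -0.34).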

How the data were processed

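Leaf RNA was sequenced by the authors from 1 library per condition. Reads of both libraries were filtered and assembled with Trinity. The deposited tables give, per unigene, an expected count (an estimated number of reads, not normalized), and the authors' TPM and FPKM values, which are scaled for length and library size. Which program estimated the counts is not given in these sources. The submitters' processing notes list Bowtie 0.12.2, Cufflinks and the mouse build mm8, which is no genome of this plant.

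Expected counts were rounded to whole reads, scaled by TMM factors and compared as log2 ratios with 1 read added, and a log2FC of 2 in either direction was called. The background for calls was every unigene with at least 1000 reads in both libraries together. Scaling factors came from edgeR 4.0.16 (TMM; upper quartile) and DESeq2 1.42.0 in R 4.3.3, and the rest from Python 3.11.15, NumPy 2.4.6, SciPy 1.17.1, pandas 2.3.3 and matplotlib 3.10.9. The fold calculation was run on simulated counts in which 200 unigenes, drawn from those with at least 1000 reads, were raised or lowered in equal numbers. That setting does not test TMM scaling under a one-sided change among the most abundant unigenes. Alternatives were other scalings, a pseudocount of 5 reads, FPKM values, other thresholds, other numbers or rankings of unigenes, and sums per Trinity component. The ranking by mean share, TMM factors without the 200 and the removal of the 2 most abundant were added after the data were seen. EBSeq, which the authors used, was not run, and 1 library per group allows no test between conditions. The unigenes named are the 10 with the most control reads, the 10 with the lowest and the 10 with the highest log2FC, the 3 just inside and just outside the 200, those that share a component, the 5 whose length differs most between the tables, and the 3 shortest, longest, highest and lowest by control TPM. Outside these rules, c59907.graph_c0 was named after its values were seen. The 200 unigenes and these rules were chosen with earlier results of these data known.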

Additional observations from a re-analysis of the deposited data

How the results depend on the processing

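The drought and control shares of reads were the same, as printed, with unrounded counts. Without the most abundant unigene they were 21.7% and 32.5%, without the 2 most abundant (added later) 20.01% and 30.0%, and of TPM 19.3% and 28.9%. For the 100 highest by control count the shares were 17.4% and 27.8%, with 22 called lower, 0 called higher and a median length of 1533 bp. For the 400 highest they were 29.0% and 43.8%, with 76 called lower, a median log2FC of -0.96 and 1576 bp. Ranked by control TPM they were 21.3% and 33.4%, with 1170 bp. With reads summed per Trinity component they were 24.5% and 36.6%, with a median log2FC of -1.08. No length was computed for components.

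The 200 highest by drought count held 27.7% of reads in drought and 27.2% in the control. With TMM their median log2FC was reversed (0.10), with 1 called lower and 53 called higher. Their median length was 1487 bp and, by construction, 200 of 200 were in the drought list. The 200 with the highest mean share (added later) held 25.9% and 34.0%, with a median log2FC of -0.62, 26 called lower, 13 called higher and 1551 bp. The median log2FC of the 200 was -1.36 with upper-quartile factors (0 called higher), -0.86 with total reads (3 called higher) and -0.85 with FPKM values (3 called higher). At a log2FC threshold of 1 there were 111 called lower and 5 higher, and at 3 there were 27 and 0. DESeq2 factors, a pseudocount of 5 reads and TMM factors from the other unigenes (added later) left 42 called lower and 1 higher. Of the 50 unigenes named by the rules above from within the 200, none that was called changed sign under the 6 alternatives for the fold. The 50 leave out c59907.graph_c0, which was named later. With upper-quartile factors 1 of the 50 lost its call (c54040.graph_c0, 1.93), and c39121.graph_c0 (-2.18) and c60435.graph_c0 (-2.04) gained one. With total reads and with FPKM values c57937.graph_c0 (2.16) and c59598.graph_c0 (2.02) gained one. The background of calls rose to 17.5% lower and 27.6% higher when unigenes with a single read were let in. All values describe 1 pooled library per condition, and no paired analysis was possible because there are no replicates.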

Other observations

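The 91 unigenes that took the place of the 91 that dropped out of the drought library's 200 most abundant were spread widely over the control list. Their median control rank was 1164, the nearest was at rank 202 and the farthest at rank 57991. Among them were 3 of the 62 unigenes that the study names, given there as genes that differed under drought. c66134.graph_c0, which the study lists under glutathione metabolism, stood at rank 44 in drought and 15342 in the control. The MYB transcription factor unigene c56737.graph_c0 stood at rank 96 in drought and 2758 in the control, and the WRKY transcription factor unigene c55976.graph_c0 at rank 177 in drought and 5485 in the control. All 62 together held 0.73% of reads in drought and 0.095% in the control. The study drew the 62 from genes that differed between these same 2 libraries. Their change in share and the entry of these 3 are thus partly set by that choice, and nothing is read from them. Over all 75265 unigenes, 91 entered.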
